A study of Caenorhabditis elegans with 2 samples.

Results

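The genes described here are the 7224 nuclear genes of Caenorhabditis elegans that the Ensembl annotation classes as ncRNA and that lie over 400 bp from every tRNA, snoRNA, snRNA and rRNA gene and from every annotated tRNA pseudogene. They were drawn from 7764 nuclear ncRNA genes among 46890 nuclear genes of all classes. A distance of 400 bp or less removed 536 genes, and 4 others were left out by symbol, namely rpr-1, mrpr-1, srpr-1.1 and srpr-1.2. A gene was counted at a peak when the summit, the highest point of the peak, lay within 200 bp of it. Positions are on the ce11 (WBcel235) assembly and counted from 1.

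The measurements are peak lists from chromatin immunoprecipitation and sequencing (ChIP-seq) of F44E2.7 fused to GFP, from 2 biological replicates that form 1 group. The worms were L4 larvae of strain OP381, which carries a fosmid transgene (wgIs381) of F44E2.7 with TY1, EGFP and 3xFLAG tags beside unc-119(+), in an unc-119(tm4063) background. They were grown for 48 hours after synchronisation by bleaching and L1 starvation. The tagged gene is an added copy in whole larvae, so the tissue of a peak is not known, and no untagged worms were analysed here. The pooled thresholded list held 896 peaks and the matching ranked list 108809 peaks, while the thresholded list of replicate 1 held 178 and that of replicate 2 held 319. Read depth is not given in the files, so the intervals below, exact 95% Clopper-Pearson intervals, cover the counting of genes or peaks alone.

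The ncRNA class of this annotation gathers transcripts that were put in no better defined family of RNA. Short genes of the tRNA type are transcribed by RNA polymerase III from promoter elements inside the gene, among them the B box, which is bound by the factor TFIIIC. Most other genes, long non-coding ones included, are transcribed by RNA polymerase II from promoters upstream of the gene. The members were short, with a median length of 141 bp and a range of 17 to 8360 bp, and 948 of them shared their exact coordinates with another member. Just 9 had a gene-class name. These included the signal recognition particle (SRP) RNA genes srpr-2.1, srpr-2.2 and srpr-3 and the Y RNA gene yrn-1, so some structured RNAs remain among the members in spite of the distance rule.

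The DNA under several of the summits is shown first, since the results on sequence, copies and neighbouring genes turn on it. Each is a window of 101 bases centred on a summit, read on the plus strand from 5′ to 3′. In the first 4, which are all the member windows with a B box, capitals mark the match to GTTCNANNC on either strand. They lie at chrII:14496969-14497069, chrX:6207852-6207952, chrV:14237609-14237709 and chrIII:4037324-4037424.
K10H10.14/K10H10.11: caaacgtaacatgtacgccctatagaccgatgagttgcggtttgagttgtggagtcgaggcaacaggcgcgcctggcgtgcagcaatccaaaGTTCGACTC
C14F11.14: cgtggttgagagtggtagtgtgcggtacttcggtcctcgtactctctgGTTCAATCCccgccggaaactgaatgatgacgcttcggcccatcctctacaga
K02E11.15: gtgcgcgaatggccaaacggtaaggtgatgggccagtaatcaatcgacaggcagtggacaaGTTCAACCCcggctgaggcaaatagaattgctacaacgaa
T02C12.7: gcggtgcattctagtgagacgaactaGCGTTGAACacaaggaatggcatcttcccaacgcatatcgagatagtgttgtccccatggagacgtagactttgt

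The next windows show a GA repeat, with GAGAG or its complement in capitals, at 3 summits that lie in promoter windows or an intron. T26A5.10 had the joint highest GC content of the member windows. They lie at chrIII:6464348-6464448, chrIV:11822060-11822160 and chrII:12222683-12222783.
T26A5.10: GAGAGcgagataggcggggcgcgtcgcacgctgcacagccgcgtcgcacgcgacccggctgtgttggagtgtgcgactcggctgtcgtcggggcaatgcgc
M117.11/M117.12: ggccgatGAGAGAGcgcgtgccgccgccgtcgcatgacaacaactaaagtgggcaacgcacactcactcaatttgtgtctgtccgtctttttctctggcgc
Y57A10A.39/Y57A10A.38: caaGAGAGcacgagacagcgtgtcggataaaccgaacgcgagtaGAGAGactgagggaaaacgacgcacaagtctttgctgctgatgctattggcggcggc

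The last pair shows a window with TATAAA on both strands beside a member found in both replicate lists, at chrV:13645880-13645980, and a window of telomere-like repeats with GCCTAA in capitals, at chrV:1165211-1165311. The word GCCTAA was chosen after the windows had been seen.
H37A05.5: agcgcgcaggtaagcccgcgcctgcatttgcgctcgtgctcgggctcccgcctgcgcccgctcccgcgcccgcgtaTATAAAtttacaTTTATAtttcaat
T21H3.8: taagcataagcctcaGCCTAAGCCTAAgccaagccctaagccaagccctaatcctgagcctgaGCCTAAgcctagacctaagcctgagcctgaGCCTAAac

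Few of the ncRNA genes were at a thresholded peak. Of 7224 members, 53 had a summit of the pooled thresholded list within 200 bp, or 0.734% (interval 0.55 to 0.959%). The background was 1.01% of the other 36902 nuclear genes over 400 bp from structural RNA genes (372 genes), so the members' share was slightly below that of other genes. The class of the other genes mattered to that background, since 15268 of them were piRNA genes, of which 2 were at a summit. Without piRNA genes the share of other genes was 1.71%, and protein-coding genes alone stood at 344 of 19207, or 1.79%. Among small groups of non-coding genes, 4 of 252 miRNA genes, 2 of 187 lincRNA genes and 0 of 96 antisense RNA genes were at a summit, with intervals that reached 4.01%, 3.81% and 3.77% and so covered the members' share.

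With piRNA genes counted among the other genes, the order of members and other genes depended on the distance rule and the list. When distance was taken to the annotated 5′ end alone, 47 members (0.651%) and 79 other genes (0.214%) were at a summit. Other genes are mostly longer, and a summit anywhere in a long gene counts for it in the distance to the whole gene. By that distance, members under 100 bp stood at 1.02%, against 1.41% of other genes of that length without piRNA genes. The shares were 0.591% and 1.39% at 100 to under 200 bp, 0.696% and 0.729% at 200 to under 500 bp, and 2% and 1.78% at 500 bp and over. At each length the 2 intervals overlapped. Those of other genes were wide below 200 bp, where 4 of 284 and 4 of 287 were at a summit and the intervals reached 3.57% and 3.53%. The overlap therefore cannot tell whether members differ from other genes of like length. In the thresholded list of replicate 1 alone the shares were 0.208% of members and 0.125% of other genes, and in that of replicate 2 alone they were 0.222% and 0.244%. IDR is the irreproducible discovery rate, which the authors cut at 0.01. At an IDR of 0.001 the shares were 0.18% of members (13 genes) and 0.141% of other genes (52 genes). The other genes by distance to the 5′ end, in single-replicate lists and at an IDR of 0.001 include the piRNA genes. Shares without piRNA genes, which leave 21634 other genes, were not computed at these settings. At 2 of them the order is still bounded, because just 2 piRNA genes were at any pooled summit. By distance to the 5′ end, at most 79 of the 21634 were at a summit, a share below that of members. At an IDR of 0.001, at most 2 of the 52 were piRNA genes, so the share without them lies above the 0.18% of members. In single-replicate lists the order against that narrower background is not known.

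**Figure D1:**
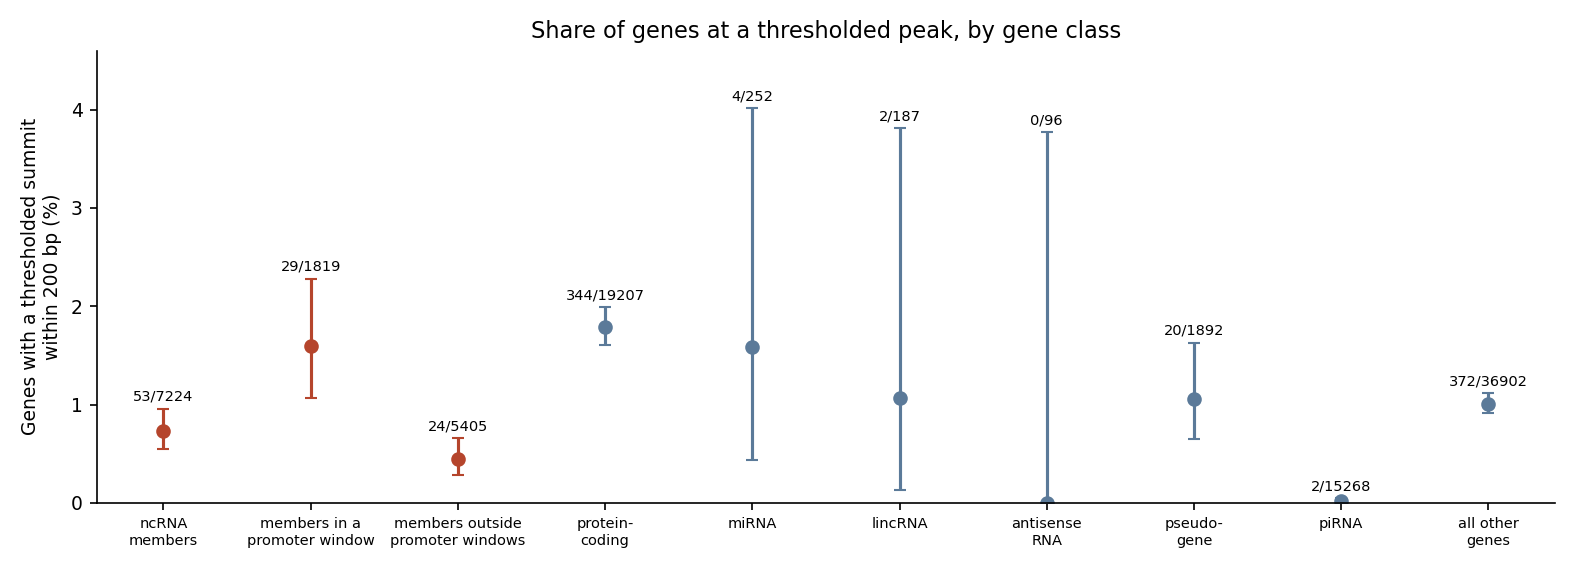
Percentage of genes with a thresholded summit within 200 bp, for the members (red) and for other gene classes over 400 bp from structural RNA genes (blue). Points are shares, bars are exact 95% intervals and the counts stand above; all members are at 0.734% and all other genes at 1.01%, and members that overlap a promoter window stand above those that do not.

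Counted by length of DNA, summits were denser at members than elsewhere. The windows within 200 bp of a member covered 3.22% of the nuclear genome and held 44 summits, 4.91% of the list (interval 3.59 to 6.54%). That is 13.6 summits per Mb, against 5.70 per Mb in DNA over 200 bp from members and structural RNA genes. Windows around structural RNA genes stood far higher, at 482 summits per Mb. Promoter windows of protein-coding genes were taken from 1000 bp upstream to 200 bp downstream of a start. They made up a similar part of the DNA beside members and away from them. Beside members, 0.761% of the genome lay inside promoter windows and 2.46% outside. Away from members and structural RNAs it was 20.6% and 75.6%. Summits were denser beside members both inside and outside promoter windows, and the gap was larger inside. Inside promoter windows the densities were 30.1 per Mb beside members (23 summits) and 7.86 per Mb away from them (162 summits), and outside promoter windows they were 8.51 per Mb beside members (21 summits) and 5.12 per Mb away from them (388 summits).

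The 53 members shared 43 highest summits, because some annotated ncRNA genes overlap or lie close enough to fall within 200 bp of the same summit. A further summit lay beside M163.17, which made 44 summits in all. Of these, 35 had 1 member within 200 bp, 8 had 2 and 1 had 3. F36H12.65, F09C12.12 and T02C12.7 each stand for a pair of gene identifiers with the same coordinates on opposite strands. Peaks do not carry strand, so no peak can be given to 1 gene of such a pair.

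The share of members at a summit differed with position relative to protein-coding genes. Among members that overlapped a promoter window, 29 of 1819 were at a summit (1.59%, interval 1.07 to 2.28%), against 24 of 5405 members that overlapped none (0.444%, interval 0.285 to 0.66%). Members outside protein-coding genes stood at 39 of 3936 (0.991%), those in an intron on the opposite strand at 6 of 1567 (0.383%) and those in an intron on the same strand at 2 of 910 (0.22%). Members that overlapped a coding exon stood at 3 of 581, and those that overlapped a non-coding part of an exon at 3 of 230. By length, 18 of 1768 members under 100 bp were at a summit, 24 of 4063 of 100 to under 200 bp, 9 of 1293 of 200 to under 500 bp and 2 of 100 of 500 bp and over. These shares, from 0.591% to 2%, had overlapping intervals. By chromosome the counts were 2 of 740 members on I, 10 of 1024 on II, 11 of 703 on III, 11 of 981 on IV, 9 of 1453 on V and 10 of 2323 on X. The shares were highest on III (1.57%, interval 0.784 to 2.78%) and lowest on I (0.27%, interval 0.0328 to 0.973%), with overlapping intervals. Members that share a summit are each counted, and the share of other genes was not taken by chromosome. The order is therefore not read as a trait of the members.

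The peaks at members were of ordinary height for the list. Their median signal, the authors' enrichment value on an unstated scale, was 82.1 (quartiles 72.4 and 108), against 80.1 for the 550 peaks away from members and structural RNAs and 97.2 for the 302 near structural RNAs. The highest member peak had a signal of 142.8, rank 73 of 896, whereas the highest peak away from them reached 344.5 and the highest of all 413.1. All 44 were 270 bp wide.

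Few of these peaks were in the thresholded lists of both replicates, as held for the whole pooled list. The replicate lists held 178 and 319 peaks against 896 in the pooled list, which limits how many can be in both. A peak in the thresholded lists of both replicates overlapped 5 of the 44 (11.4%, interval 3.79 to 24.6%), a peak in 1 of those lists overlapped 9, and 30 (68.2%) were in neither. The same share in both lists was 8.18% for the 550 peaks away from members and structural RNAs, and 21.2% for the 302 near structural RNAs. Over all 896 pooled peaks, 12.7% were in both lists and 60.8% in neither. In the ranked lists, of 65299 peaks in replicate 1 and 71635 in replicate 2, 43 of the 44 (97.7%) were found in both replicates. This was near the 96.9% of the 550 peaks away from members and structural RNAs. An overlap of any length counted, which is a weak demand on lists this long. The 2 peaks beside M163.17 overlap and took the same replicate values, so that locus enters these counts more than once. For the peaks at members, the ranked signal in replicate 1 had a median of 37.4 with a range of 20.9 to 70.0. In replicate 2 it had a median of 49.4 with a range of 27.2 to 88.0. C40C9.13 had no ranked peak in replicate 2. Of the 44, 31 (70.45%) overlapped a peak of the conservative list, the other thresholded list of the whole series. The same share was 71.45% for peaks away from members and structural RNAs and 87.75% for those near structural RNAs.

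**Figure D2:**
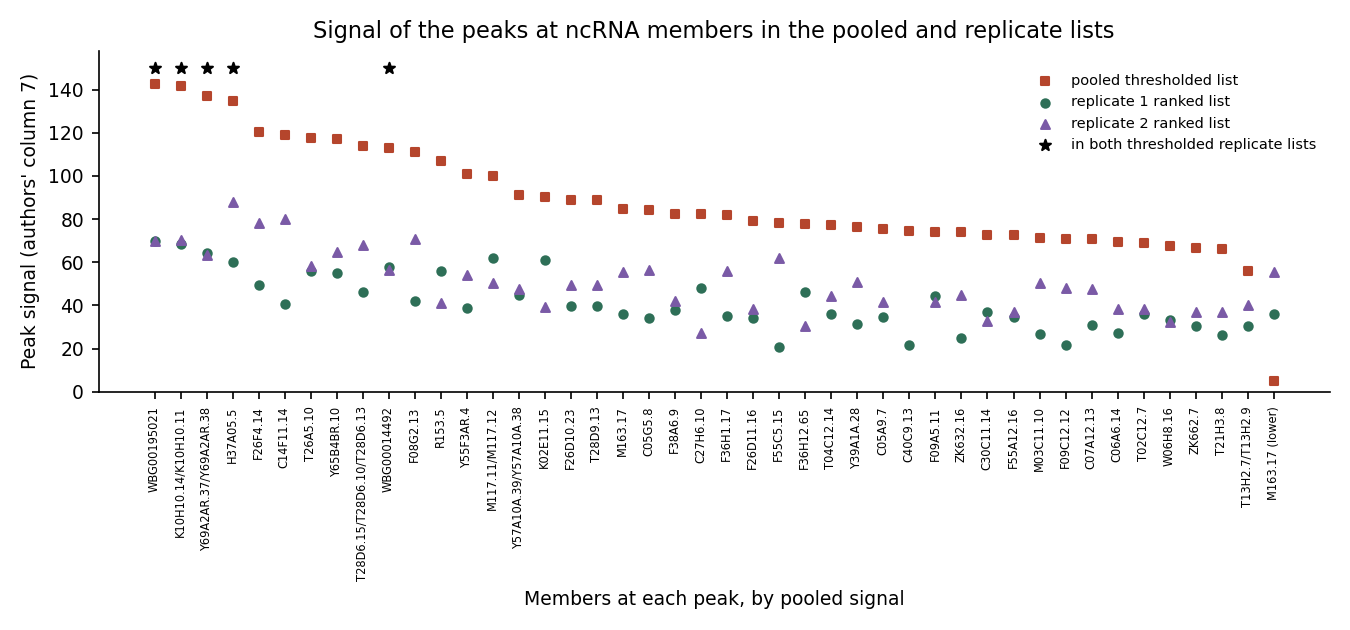
Peak signal (vertical axis, authors' column 7) of the 44 thresholded peaks at members, ordered by pooled signal along the horizontal axis; squares are the pooled list, circles and triangles the ranked lists of replicates 1 and 2, and stars mark the 5 peaks in both thresholded replicate lists. The 2 peaks beside M163.17 share the same replicate values, C40C9.13 has no replicate 2 value, and levels of different lists are not on 1 scale.

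The 5 peaks found in both replicate lists lay at 7 members. The highest of all, with a signal of 142.8, lay beside WBGene00195021, an annotated gene of 19 bp at chrIV:4725436-4725454. Its replicate signals were 70.0 in replicate 1 and 70.0 in replicate 2, and the summit lay 142 bp upstream of its 5′ end, outside protein-coding genes and promoter windows. K10H10.14 and K10H10.11, which overlap on the plus strand near chrII:14496894-14497177, shared a peak of 141.5, with signals of 68.4 in replicate 1 and 70.3 in replicate 2. This is the strongest member peak with a B box, and it too lay outside promoter windows. Y69A2AR.37 and Y69A2AR.38, which overlap on opposite strands at chrIV:2664753-2665339, shared a peak of 136.9 with signals of 64.3 in replicate 1 and 63.3 in replicate 2. That summit lay inside both genes and 959 bp upstream of the protein-coding gene Y69A2AR.31.

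H37A05.5, of 70 bp at chrV:13645973-13646042, had a peak of 134.9 with 60.4 in replicate 1 and 88.0 in replicate 2. Its summit lay 112 bp from the 5′ end, downstream of the gene. WBGene00014492, which spans 1791 bp at chrII:10542425-10544215, had a peak of 112.9 with 58.0 in replicate 1 and 56.5 in replicate 2. Its summit lay in a non-coding part of an exon of mnk-1, which encodes a kinase of the MAP kinase-interacting family, on the same strand. Signals of the 2 replicates come from separate lists and are given side by side without a comparison of their levels.

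The other members of high signal were mostly in 1 thresholded replicate list or none. F26F4.14 had a signal of 120.3, with 49.5 in replicate 1 and 78.2 in replicate 2, and its summit lay 837 bp upstream of nhl-2, a cofactor of microRNA silencing, and 586 bp upstream of tag-340. C14F11.14, whose window holds a B box, had 118.8, with 40.6 in replicate 1 and 79.96 in replicate 2, 215 bp upstream of T13C5.6. T26A5.10 had 117.8, with 55.8 and 58.3 in replicates 1 and 2, between dlc-1, a dynein light chain, and nduf-2.2, a subunit of mitochondrial complex I. Of these, T26A5.10 was in the thresholded list of replicate 1 alone, and the others were in that of replicate 2 alone.

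Y65B4BR.10 had a signal of 117.0, with 55.1 in replicate 1 and 64.6 in replicate 2, and lay 316 bp upstream of wwp-1, a ubiquitin ligase. T28D6.10, T28D6.13 and T28D6.15 shared a peak of 114.1 in an intron of tba-7, an alpha-tubulin gene, with 46.4 in replicate 1 and 68.0 in replicate 2. F08G2.13 had 111.2, with 42.3 in replicate 1 and 70.8 in replicate 2, 863 bp upstream of F08G2.5. All 3 peaks were in the thresholded list of replicate 2 and not in that of replicate 1. M117.11 and M117.12 shared a peak of 99.9, with 62.1 in replicate 1 and 50.3 in replicate 2, 96 bp upstream of M117.3 and 186 bp upstream of par-5, a 14-3-3 protein. K02E11.15 had 90.2, with 61.2 in replicate 1 and 39.2 in replicate 2. These last 2 peaks were in the thresholded list of replicate 1 alone.

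Further peaks among the 25 of highest signal were in neither thresholded replicate list, apart from that of F55C5.15. R153.5 had a signal of 107.0, with 55.9 in replicate 1 and 41.1 in replicate 2, in an intron of pde-4, a cAMP phosphodiesterase. Y55F3AR.4 had 100.7, with 39.0 in replicate 1 and 54.2 in replicate 2, 193 bp upstream of Y55F3AR.2 and 428 bp upstream of cct-8, a subunit of the cytosolic chaperonin. Y57A10A.38 and Y57A10A.39 shared a peak of 91.0 in an intron of pqn-87. The peaks do not say which of the genes in a window, coding or not, a peak belongs to. F26D10.23 had 88.9, with 39.9 in replicate 1 and 49.5 in replicate 2, upstream of hsp-1, which encodes a constitutive Hsp70 chaperone. F38A6.9 had 82.3, with 37.9 in replicate 1 and 42.2 in replicate 2, in an intron of pha-4, the FoxA factor of pharynx development. T28D9.13, M163.17, C05G5.8, C27H6.10, F36H1.17, F26D11.16 and F55C5.15 had signals of 78.4 to 88.6, and of these 7, F55C5.15, 103 bp upstream of the start of bnc-1, was in a thresholded replicate list, that of replicate 2, with 20.9 in replicate 1 and 61.8 in replicate 2. The second summit beside M163.17 had a signal of 4.93, the lowest of the 44.

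Most of the summits lay in a promoter window. There were 23 of 44 (52.3%, interval 36.7 to 67.5%), against 162 of the 550 peaks away from members and structural RNAs (29.5%, interval 25.7 to 33.5%). Of the 23, 8 lay in the windows of more than 1 protein-coding gene. By the strict position of the summit, 6 lay in introns, 1 in a coding exon (of plc-1, by C05A9.7), 1 in a non-coding part of an exon and 36 outside protein-coding genes. A set of 13 summits lay outside both protein-coding genes and promoter windows. Among them were WBGene00195021, K10H10.14 with K10H10.11, H37A05.5 and K02E11.15.

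The position of the summit was taken along the strand of the member. The 200 bp rule admits only summits on or near a member, so their closeness is set by the rule and is not a result. Over the 54 pairs of a member and a summit, the median position was 66 bp downstream of the annotated 5′ end (quartiles −11.75 and 125.75 bp, range −142 to 345 bp). The summit was inside the gene in 28 pairs, upstream in 15 and downstream in 11. A peak of 270 bp is longer than most of the members, so these positions are read as near the gene and not as at its start. In single-replicate lists the median was 118 bp in replicate 1 (15 pairs) and 26.5 bp in replicate 2 (16 pairs).

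**Figure D3:**
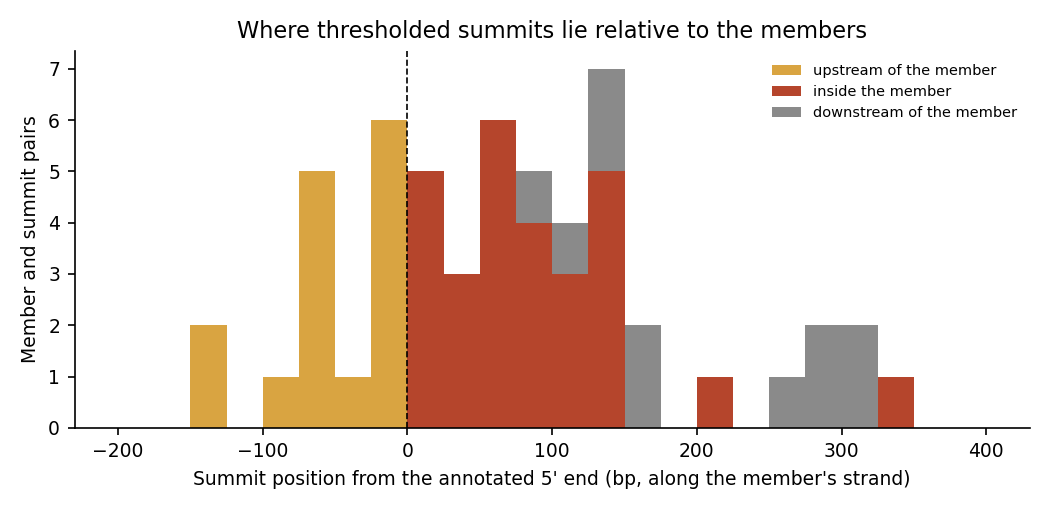
Number of member and summit pairs (vertical axis) by position of the summit from the annotated 5′ end in bp along the strand of the member (horizontal axis, bins of 25 bp). Of 54 pairs, 15 have the summit upstream of the member, 28 inside it and 11 downstream, with a median of 66 bp.

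The summits were GC-rich relative to their surroundings. Windows of 101 bases had a mean GC content of 53.0% ± 8.32 (SD, n = 44 windows), against 34.0% ± 5.99 in flanks centred 300 bp away, and the difference of 18.96 ± 10.3 points was positive in 42 of 44. The exceptions were Y65B4BR.10 and C30C11.14. Peaks away from members and structural RNAs also differed from their flanks, by 12.1 ± 10.6 points, so a GC-rich summit was not particular to the ncRNA genes. The highest window GC was 71.3%, at T26A5.10 and Y39A1A.28, and the lowest 32.7%, at C30C11.14. The gene bodies themselves had a mean GC content of 48.8% for the 53 members at a summit and 42.4% for all 7224 members. GC content can affect how well DNA is amplified and sequenced, and its part in the peaks was not tested.

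Short motifs were counted in the same windows, on both strands. GAGAG was present in 16 of 44 member windows (36.4%, interval 22.4 to 52.2%), in 6.82% of the flanks, in 25.1% of summit windows away from members and structural RNAs and in 12.5% of all genome tiles of 101 bases. TTTTT was present in 25% of member windows, against 73.9% of flanks, 38.9% of summit windows away from members and 68.5% of tiles. TATAAA was present in 4.55% of member windows, in 3.09% of summit windows away from members and structural RNAs and in 11.2% of tiles. TGATAA, the word bound by factors of the GATA type, was present in 9.09% of member windows and in 9.35% of tiles. In summit windows away from members and structural RNAs it was present in 5.27%.

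The B box was found at a few members. GTTCNANNC was present in 4 of 44 windows (9.09%, interval 2.53 to 21.7%), in 6.36% of summit windows away from members and structural RNAs and in 3.53% of tiles. Near structural RNA genes it was present in 57.6% of summit windows. A match is a stretch of letters, and neither its presence nor its absence shows whether a factor is bound. With windows widened to 100 bp each way, which leave more room for a match, the pattern was in 8 of 44 (18.2%). With a G required in front of it, the pattern remained at C14F11.14 alone.

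**Figure D4:**
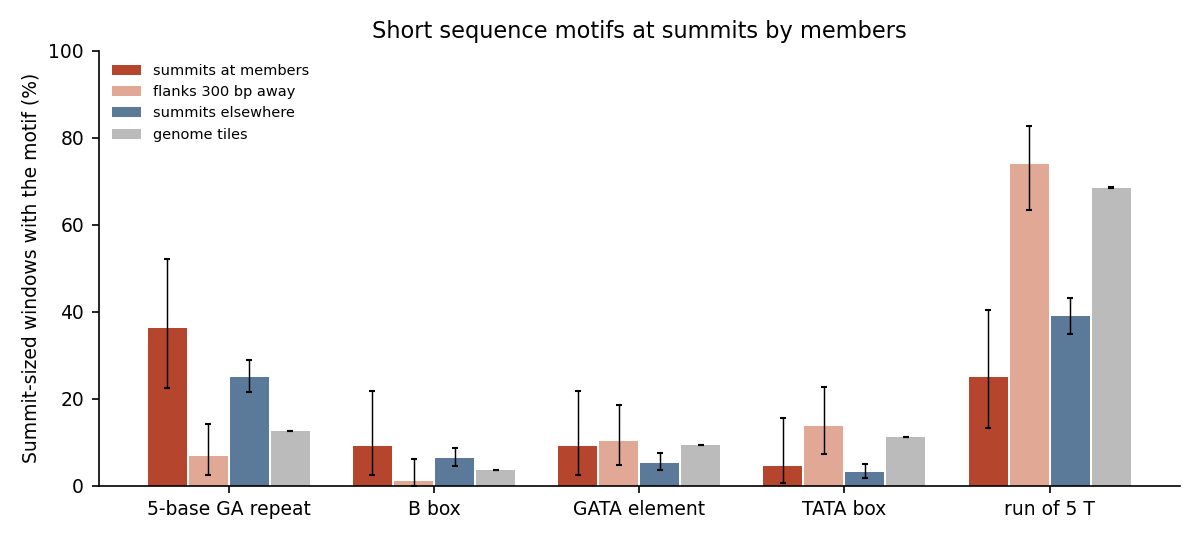
Percentage of 101-base windows that hold each motif on either strand (vertical axis), for summits at members, their flanks, summits away from members and structural RNAs, and all genome tiles; bars are shares and error bars exact 95% intervals. The GA repeat is in 36.4% of member summits and 12.5% of tiles, the B box in 9.09% and 3.53%, and the run of T in 25% and 68.5%.

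Most of the windows were unique in the genome. Of 44, 37 had no other alignment of at least 80% identity over at least 50 bases, and 29 held no repeat-masked base. The T21H3.8 window was the opposite, with 1117 other alignments and 84.2% of its bases masked. No copy of any window overlapped a tRNA, snRNA, snoRNA or rRNA gene, although that of F36H12.65 lay 150 bp from one. Reads from near-identical copies may be placed at any of them, so the peaks of the windows with copies are uncertain in position.

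K02E11.15, of 167 bp at chrV:14237609-14237775, belongs to a dispersed set of near-identical sequences. Its window had 19 other copies, at 93.1 to 98.9% identity, on all 6 nuclear chromosomes, and 9 of them lay in protein-coding genes. Of the 19 copies, 17 held the B box pattern and 8 had a thresholded summit within 200 bp, 7 of these 8 copies with the pattern. The signal was 90.2 at K02E11.15 itself, against 75.2 to 147.3 at the copy summits, so the member was not the highest of its own set. In 7 of the 8 cases the summit lay within 55 bp of the middle of the copy. The nearest tRNA, snRNA, snoRNA or rRNA gene to any of the 8 copies was 22107 bp away. The copy in T24H10.5, at chrII:9102764-9102864 on the plus strand, had the highest signal of the set (147.3), and that in pmt-2, a phosphoethanolamine methyltransferase gene, at chrV:4632964-4633064 on the minus strand, had 127.6. Both are shown in the orientation of K02E11.15, with the B box in capitals.
T24H10.5 copy: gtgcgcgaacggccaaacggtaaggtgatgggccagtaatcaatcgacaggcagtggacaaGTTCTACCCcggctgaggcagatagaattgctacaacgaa
pmt-2 copy: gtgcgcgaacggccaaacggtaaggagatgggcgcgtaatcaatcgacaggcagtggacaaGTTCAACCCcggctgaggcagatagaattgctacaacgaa

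The windows of other members had fewer copies with peaks. C14F11.14 had 3 copies at 90 to 92.1% identity, all on the X chromosome and all at ncRNA genes, namely ZK816.8 with ZK816.9, T22B2.9 with T22B2.12, and K02D3.5. All 3 held the B box and none had a thresholded summit. The signal was 118.8 at C14F11.14, against ranked signals of 63.6, 29.9 and 24.8 at the copies. WBGene00195021 had 7 copies at 95.8 to 98.97% identity, of which 1 had a thresholded peak. The signal was 142.8 at WBGene00195021, against 141.5 at that copy. The other 6 had ranked signals of 8.99 to 58.1. The single copy of the H37A05.5 window lay beside the same peak.

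In the ranked list, which reaches far below the authors' threshold, most members had a peak. A ranked summit lay within 200 bp of 4625 of 7224 members (64.0%), above the background of 51.3% for other nuclear genes over 400 bp from structural RNA genes (18939 of 36902). That background again holds the piRNA genes, at 8.04%, and protein-coding genes stood at 83.2%, miRNA genes at 63.5% and lincRNA genes at 65.2%. The highest ranked signal of a member had a median of 28.8 (quartiles 19.9 and 39.8), against 38.6 for protein-coding genes, 28.2 for miRNA genes and 31.9 for lincRNA genes. Long genes have more room for a high peak, and by length members of 100 to under 200 bp had a median of 28.7 against 27.3 for other genes of that length without piRNA genes, and members of 500 bp and over 37.3 against 38.5.

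**Figure D5:**
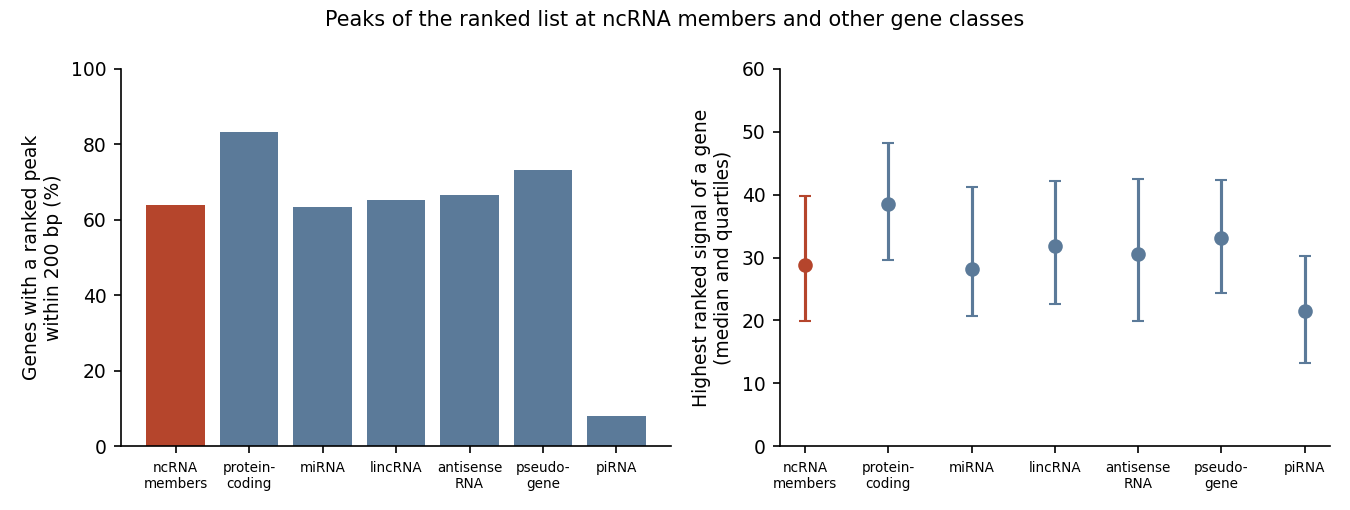
Left, percentage of genes with a ranked peak within 200 bp; right, median and quartiles of the highest ranked signal of the genes that have one, for members (red) and other gene classes (blue). Members stand at 64.0% and a median of 28.8, close to miRNA genes at 63.5% and 28.2 and below protein-coding genes at 83.2% and 38.6.

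A ranked peak of a low rank carries little weight, and the shares shrank fast with the IDR. At an IDR of 0.1 or lower, 413 members (5.72%) had a peak, against 8.44% of other genes. At 0.05 or lower there were 244 members (3.38%), against 4.30% of other genes, and at 0.01 or lower the same 53. Of 987 ranked peaks at an IDR of 0.01 or lower, 91 overlapped no thresholded peak, and 0 of these lay within 200 bp of a member. The threshold did not follow signal alone. The lowest of the members' highest thresholded peaks, at T13H2.7 and T13H2.9, had a signal of 56.1, and 222 members without a thresholded summit had a ranked signal above that.

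None of the 9 members with a gene-class name was at a thresholded summit. srpr-2.2, an SRP RNA gene, came nearest, with a ranked signal of 81.7 at an IDR of 0.0117, and 36.2 in replicate 1 and 43.5 in replicate 2. It shares this summit with R144.16 and has the highest signal of any member outside the threshold. F52B5.9 (80.03, IDR 0.0133) and K02F2.11 (79.2, IDR 0.0121) followed it. srpr-3 had 64.1 at an IDR of 0.0262, with 42.1 in replicate 1 and 24.4 in replicate 2, and srpr-2.1 had no ranked peak. The sequence of srpr-2.1 is 99% identical to that of srpr-2.2, so their reads could be split or exchanged, and the SRP RNA values are uncertain. The SRP RNA genes srpr-1.1 and srpr-1.2, which are not among the members, had thresholded peaks of 97.7 and 104.9.

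The remaining named members were lower. rncs-1, a non-coding RNA known to inhibit Dicer, had 54.3 at an IDR of 0.0886, with 20.5 in replicate 1 and 29.96 in replicate 2. yrn-1, the Y RNA bound by the Ro protein, had 48.8 at an IDR of 0.131, with 29.4 in replicate 1 and 21.1 in replicate 2. tts-1, a long non-coding RNA that is abundant in long-lived daf-2 mutants, had 46.6 at an IDR of 0.189, with 16.2 in replicate 1 and 26.3 in replicate 2. linc-171 had 43.4, tts-2 had 37.3 with no ranked peak in replicate 1, and lfor-2 had none. The 7 named genes that had a ranked peak were all above the median of 28.8 over all members with one, and several of them are longer than most members.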

How the data were processed

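Peak lists of 2 biological replicates were used, 8 in all. Per the labels, peaks are on ce11. The aligner and peak caller were not given in the sources used here, nor was the use made of the control experiment that the labels name. The signal in column 7, as deposited, has no stated scale and served to rank and describe peaks within 1 list. The deposited score is capped at 1000 and was not reported. The deposited −log10 IDR gave each peak's IDR, and the authors' threshold corresponds to 0.01.

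Gene classes came from the Ensembl 115 annotation and tRNA pseudogenes from the RefSeq annotation of WBcel235, whose sequence also gave the windows shown. The members, gene lists and alternatives were chosen with earlier results of these data known. A gene was tied to the peak of highest signal with its summit within 200 bp. Genes named in the text were the members of the 25 highest pooled signals, those with a gene-class name, those in both replicate lists and the 3 highest outside the threshold; others were named for their neighbours, copies or extremes after values were seen. Intervals are exact (scipy 1.17.1). Copies were found with BLAST 2.17.0 (word size 11, e-value 0.0001). The assignment step was tested on simulated data. With 1 group, no test between conditions was possible. Alternatives are given in the closing section.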

Additional observations from a re-analysis of the deposited data

How the results depend on the processing

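Of 57 alternative values, 35 stayed within the interval, spread or 1.5-fold range set for them and 22 did not. The share of members at a thresholded summit (0.734%) was 0.208% and 0.222% in single-replicate lists, 0.18% at an IDR of 0.001, 1.09% for members that overlap no other gene and 0.444% for members that overlap no promoter window, the last chosen after seeing the data. The 44 summits became 10 and 12 in single-replicate lists and 10 at an IDR of 0.001. The share of other genes (1.01%) was 0.125% and 0.244% in single-replicate lists, 0.873% at 100 bp, 1.24% at 400 bp, 0.214% by distance to the 5′ end and 0.141% at an IDR of 0.001. The share of summits in both replicates (11.4%) was 27.3% with ranked lists at an IDR of 0.05. The GC difference (18.96 points) was 14.8 with windows of 100 bp to either side, and the B box share (9.09%) was 2.27% with a G before the pattern, 18.2% with windows of 100 bp to either side and 13.2% in the conservative list. The share of members with a ranked peak (64.0%) was 43.2% and 47.6% in single-replicate lists and 49.2% at 100 bp, and the median ranked signal (28.8) was 17.5 and 20.1 in single-replicate lists. The single-replicate lists are shorter than the pooled lists, so fewer genes can lie at a peak in them. The causes of the other changes were not tested. The conservative list, the other distances from structural RNA genes and leaving out the last 1 Mb of chromosome V kept the members' share within its interval. No paired analysis was possible because there is 1 group. Read depth is not given in the files.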

Other observations

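Of the members at a summit with a repeat-rich window, C30C11.14 had 58.4% of its 101 bases masked and T21H3.8 had 84.2%, and neither peak was in a thresholded list of either replicate. The F36H12.65 window had 1 copy of 62 bases at 100% identity on the same chromosome, and the signal was 77.6 at the member, against a ranked signal of 55.7 within 200 bp of the copy. This copy lay 150 bp from a structural RNA gene. The T13H2.7 and T13H2.9 window ends in a run of GT repeats and had 1 copy, in R04E5.9, with a ranked signal of 31.3.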
